A study of Mus musculus with 36 samples.

Results

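The imprinted genes described here are 48 mouse genes listed by symbol, from imprinted regions such as Dlk1-Meg3, Snrpn-Ube3a, Peg3 and Gnas. Members were found by matching the Ensembl identifiers of the count tables to gene symbols, and 44 of the 48 had a row among the 38924 genes counted. Snrpn, Snurf, Kcnq1ot1 and Peg13 had none and were not analysed here. The 36 libraries came from 3 brain areas (hypothalamus, cortex, brainstem) of C57BL/6 mice, with 3 libraries for each of 4 genotypes in each tissue. Hcrt/Orexin-ataxin-3 transgenic mice carry 1 copy of a transgene in which the hypocretin (orexin) promoter drives ataxin-3, so that hypocretin neurons are lost. Their controls were wild-type mice of that line. Hcrt/Orexin knockout mice lack the hypocretin gene on both chromosomes but keep the cells, and their controls were wild-type mice of the knockout line. The ages were not given in the sources used here, and nothing there says whether libraries of a group came from separate animals, so that p-values measure the spread between these libraries.

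Imprinted genes are expressed mainly from 1 parental chromosome, because DNA methylation laid down in the egg or sperm marks the copies differently. They lie in clusters in which protein-coding genes expressed from one parent's copy often sit beside long non-coding RNAs expressed from the other. In the brain they are best known in the hypothalamus, where several are linked to feeding, growth and maternal behaviour. The counts do not separate the parental alleles, so "paternal" and "maternal" below name the copy each gene is usually expressed from, as background. This need not hold in every tissue or cell type of the brain. Grb10, counted here as maternal, is known to be paternal in mouse neurons.

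Many of the largest differences between regions were in members of the Dlk1-Meg3 domain on chromosome 12, the Prader-Willi and Angelman region on chromosome 7 and the Peg10 domain on chromosome 6. The 250 bases before the RefSeq start of 4 of these genes (GRCm38.p6) are shown because Dlk1 and Meg3, neighbours expressed from opposite parental copies, differed in opposite directions between hypothalamus and cortex, while Magel2 and Asb4 were far higher in hypothalamus. Capitals mark CG pairs, the sites of the methylation that imprinting uses. The windows lie on the + strand at chr12:109452573-109452822, chr12:109540746-109540995, chr7:62376729-62376978 and chr6:5383136-5383385, and none overlaps an annotated exon.
Dlk1: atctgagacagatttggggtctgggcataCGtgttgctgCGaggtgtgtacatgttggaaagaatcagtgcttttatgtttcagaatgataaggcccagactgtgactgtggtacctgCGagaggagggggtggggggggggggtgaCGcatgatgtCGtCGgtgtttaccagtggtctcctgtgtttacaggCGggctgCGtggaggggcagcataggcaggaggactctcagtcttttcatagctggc
Meg3: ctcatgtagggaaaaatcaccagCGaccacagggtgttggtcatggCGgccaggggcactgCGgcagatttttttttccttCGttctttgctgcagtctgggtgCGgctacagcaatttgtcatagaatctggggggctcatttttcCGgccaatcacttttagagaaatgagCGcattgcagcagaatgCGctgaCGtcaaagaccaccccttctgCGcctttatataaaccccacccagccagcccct
Magel2: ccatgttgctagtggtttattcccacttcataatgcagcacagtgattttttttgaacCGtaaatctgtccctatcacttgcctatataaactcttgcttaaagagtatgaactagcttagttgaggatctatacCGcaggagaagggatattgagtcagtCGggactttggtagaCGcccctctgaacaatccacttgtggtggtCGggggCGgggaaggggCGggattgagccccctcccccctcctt
Asb4: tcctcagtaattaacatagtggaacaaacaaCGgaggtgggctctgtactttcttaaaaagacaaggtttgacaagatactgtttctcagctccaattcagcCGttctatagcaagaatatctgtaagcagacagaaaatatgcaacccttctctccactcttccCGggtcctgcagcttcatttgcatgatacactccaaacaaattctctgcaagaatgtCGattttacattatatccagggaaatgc
These windows hold 8 CG pairs before Dlk1, 10 before Meg3, 7 before Magel2 and 4 before Asb4, against a median of 6 over 32851 RefSeq promoters. Of all promoters, 43% held at least as many as Dlk1, 37.8% as Meg3, 46.3% as Magel2 and 62.2% as Asb4. Taking for each gene its promoter richest in CG pairs, the median was 12 over the 38 members with a RefSeq promoter. Over all genes it was 6. The window before Meg3 also holds TGACGTCA, the palindromic cyclic AMP response element, which was present in 1.55% of all promoters searched over the same 250 bases. Among 56 promoters of the 38 members with a RefSeq promoter it was found in 3, those of Meg3, Peg3 and Zdbf2. Methylation and factor binding were not measured in these libraries.

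Mirg, a maternal long non-coding RNA at the far end of the Dlk1-Meg3 domain (chr12:109729764-109749460), is the host of microRNAs, and its levels are described at length below. Of 14 RefSeq hairpins inside Mirg, 4 lie wholly within its annotated exons, and their 7 mature sequences are given with the seed, bases 2 to 8, in capitals.
mmu-miR-134-5p: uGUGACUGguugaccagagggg
mmu-miR-134-3p: cUGUGGGCcaccuagucacc
mmu-miR-485-3p: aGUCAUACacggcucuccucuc
mmu-miR-377-5p: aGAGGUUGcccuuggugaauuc
mmu-miR-377-3p: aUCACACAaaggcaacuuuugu
mmu-miR-410-5p: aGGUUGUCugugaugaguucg
mmu-miR-410-3p: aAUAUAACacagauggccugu
The 7 seeds were all different. The libraries were made from polyadenylated RNA, so they hold the host transcript and not the mature microRNAs.

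Gene counts per library ran from 21915540 to 47057537. Levels are CPM, each gene's counts relative to the library's total, scaled over all 36 libraries by edgeR's TMM factors, and comparisons between genes use CPM per kilobase of exon. Hcrt, the gene that both models target, was 2.07, 2.28 and 2.46 CPM in ataxin-3 transgenic hypothalamus, against 180, 101 and 196 CPM in its wild type. In Hcrt knockout hypothalamus it was 1.14, 1.03 and 0.996 CPM, against 81.2, 51.4 and 56.1 CPM in its wild type. In brainstem the counts of Hcrt were 29, 27 and 42 in Hcrt knockout and 5, 0 and 2 in its wild type, so that these few reads lay the other way. They were 1, 1 and 1 in ataxin-3 transgenic brainstem and 5, 4 and 2 in its wild type. In cortex they were 17, 10 and 9 in Hcrt knockout and 1, 30 and 1 in its wild type, with overlap. Genes varied more between hypothalamus libraries of a group, with a biological coefficient of variation of 18%, than between those of cortex, at 7.35%, or brainstem, at 9.03%.

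Marker lists chosen for each area matched the tissue labels. Hypothalamus markers summed to 1171 to 2265 CPM in hypothalamus libraries and at most 100 CPM elsewhere, cortex markers to 2915 to 3192 CPM in cortex and at most 910 CPM elsewhere, and brainstem markers to 562 to 749 CPM in brainstem and at most 2.8 CPM elsewhere.

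Several libraries stood apart. In hypothalamus, wild types 1 and 3 of the ataxin-3 line and wild type 3 of the knockout line held pituitary transcripts. Growth hormone (Gh) was 22207, 11713 and 16253 CPM in them, against 4.55 to 22.1 CPM in the other 9 hypothalamus libraries. Prolactin (Prl) was 3338, 1915 and 2455 CPM there and 0.437 to 17.9 CPM in the others. Ataxin-3 transgenic hypothalamus 1 held nasal transcripts, with Bpifa1 at 725 CPM and the olfactory marker Omp at 594 CPM, against at most 11.5 and 16.4 CPM in the others. Hcrt knockout hypothalamus 1 and ataxin-3 transgenic cortex 1 were low for long transcripts. In them genes with over 12 kb of exon had a median log2 ratio of -0.43 and -0.34 to the other libraries of the tissue, and genes under 2 kb 0.30 and 0.29. In the other 34 libraries these medians stayed between -0.13 and 0.16. In brainstem, wild types 1 and 2 of the ataxin-3 line had 10.1% and 15.2% of their counts outside any gene, against 6.38% to 7.33% in the other 10 brainstem libraries. Their scaling factors were 0.953 and 0.846, and wild type 2 was the least deep of all 36 libraries.

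In hypothalamus, imprinted genes were mostly higher than in cortex. Of the 43 members tested, 32 were higher in hypothalamus and 6 lower, where 42.7% and 40.3% of all 17744 genes were called higher and lower. Higher by at least 2-fold were 22 members, while 12.5% of all genes were, and Meg3 and Herc3 were lower by at least 2-fold, while 12.7% of all genes were. The median log2 fold change was 1.00 over the members and 0.03 over all genes tested. In 26 members every hypothalamus library lay above every cortex library, as in 22.3% of all genes. Phlda2, a maternal gene that restrains placental growth, was not tested, with at most 0.0455 CPM in any library.

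Against brainstem the difference was smaller. Higher in hypothalamus were 28 members and lower 10, where 40.8% and 36% of all genes were called. By at least 2-fold 15 were higher and 1, Airn, was lower, against 9.52% and 7.92% of all genes. The median log2 fold change was 0.50 over the members and 0.04 over all genes. Between cortex and brainstem 6 members were higher in cortex and 33 lower, where 41.6% and 43.1% of all genes were called, with a median of -0.74 against -0.02 over all genes.

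By the parental copy usually expressed, of the 21 paternal members, 18 were higher in hypothalamus than in cortex and none lower, and 14 were higher by at least 2-fold. Of the 22 maternal members tested, 14 were higher and 6 lower, with 8 higher by at least 2-fold. Of all genes tested, 42.7% were called higher, 40.3% lower and 12.5% higher by at least 2-fold. Summed over the class, the paternal members reached 6820 to 8304 CPM in hypothalamus libraries, 1983 to 2212 CPM in cortex libraries and 3409 to 3958 CPM in brainstem libraries. For the maternal members the sums were 5314 to 7002 CPM, 8283 to 10181 CPM and 4534 to 5313 CPM in the same order of tissues, with Meg3 alone making up most of the sum in cortex. The difference between the classes itself was not tested.

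**Figure D1:**
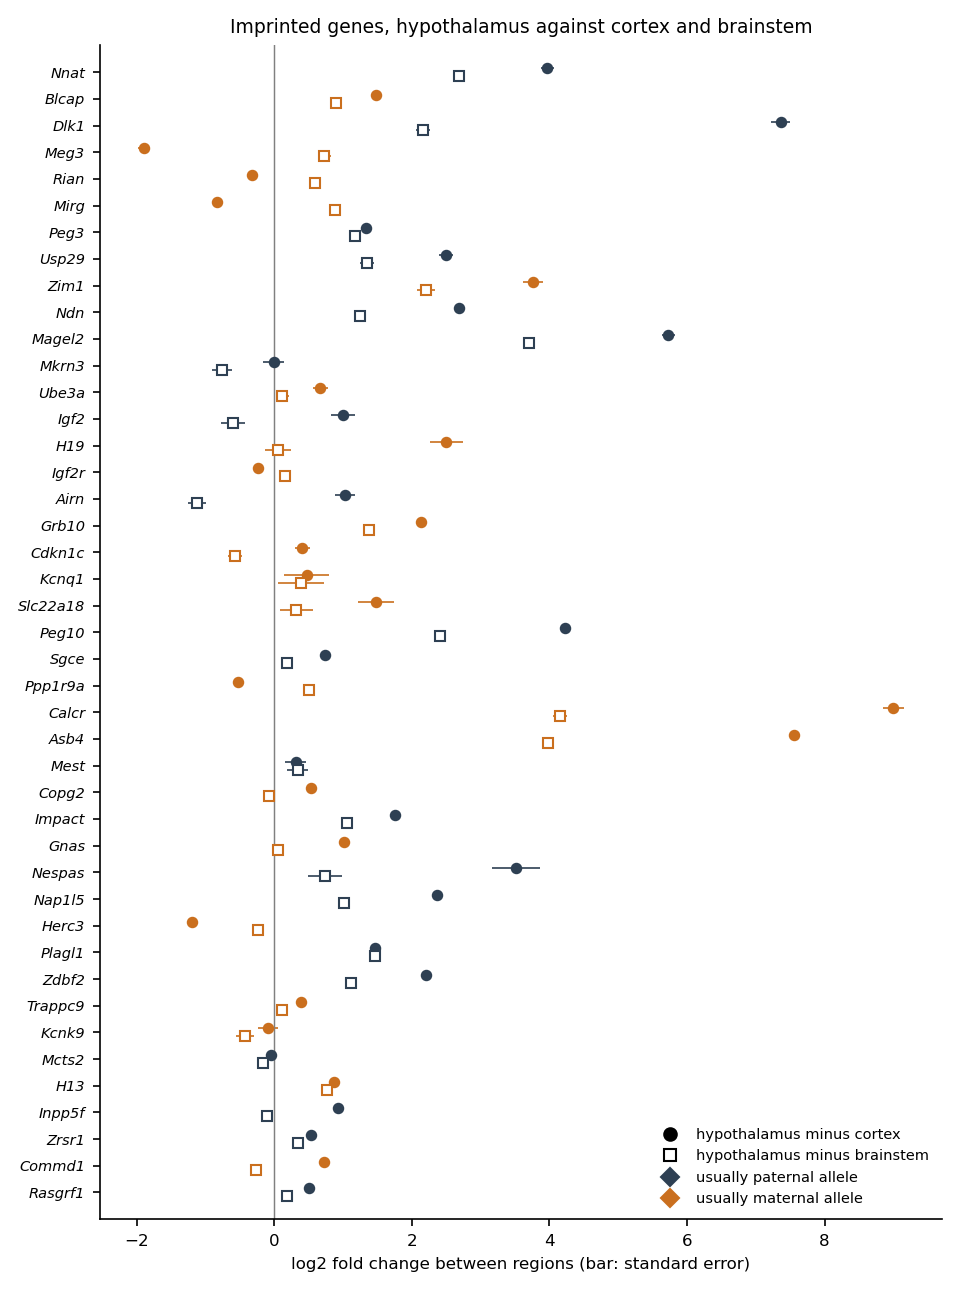
Log2 fold change of each of 43 imprinted genes between regions over 36 libraries (horizontal axis; bars are standard errors), for hypothalamus minus cortex (filled circles) and hypothalamus minus brainstem (open squares), coloured by the parental copy usually expressed. Most circles lie right of 0, up to 9.0 for Calcr, and Meg3 lies farthest to the left at -1.89.

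The Peg10 domain on chromosome 6 held the largest differences. Calcr (chr6:3685680-3764714), the calcitonin receptor, had 35.2 to 46.8 CPM in hypothalamus libraries with a median of 42.1. In cortex it had 0 to 0.231 CPM, median 0.0832, and in brainstem 1.93 to 3.17 CPM, median 2.24. The 3 tissues did not overlap, and the log2 fold change was 9.0 ± 0.15 (SE) against cortex, where its counts ran from 0 to 8, and 4.15 ± 0.10 against brainstem (adjusted p = 1.2e-29 and 7.3e-26). Asb4 (chr6:5383386-5433022), which encodes an ankyrin repeat protein of a ubiquitin ligase complex, had 53.2 to 71.1 CPM in hypothalamus, median 63. It had 0.194 to 0.477 CPM in cortex, median 0.323, and 3.22 to 4.74 CPM in brainstem, median 4.04. The difference was 7.56 ± 0.08 against cortex and 3.98 ± 0.06 against brainstem (adjusted p = 1.6e-34 and 6.4e-31). Asb4 thus followed the same order of tissues as Calcr, with hypothalamus above brainstem and brainstem above cortex in every library.

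Peg10 itself, a gene derived from a retrotransposon, had 416 to 630 CPM in hypothalamus, 23.3 to 32.9 CPM in cortex and 87.4 to 118 CPM in brainstem (4.22 ± 0.06 against cortex). Its neighbour Sgce, the epsilon-sarcoglycan gene that starts from the same promoter region in the other direction, differed far less, with 32.3 to 46.1 CPM in hypothalamus and 20.3 to 26 CPM in cortex (0.74 ± 0.04). Ppp1r9a, which encodes the actin-binding protein neurabin, lay the other way. It had 198 to 320 CPM in hypothalamus, median 302, then 296 to 453 CPM in cortex, median 435, and 185 to 241 CPM in brainstem, median 209. Its log2 fold change was -0.52 ± 0.06 for hypothalamus against cortex and 1.02 ± 0.06 for cortex against brainstem (adjusted p = 9.1e-10 and 1.1e-16).

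In the Dlk1-Meg3 domain the protein-coding gene and the non-coding RNAs differed in opposite directions. Dlk1 (chr12:109452823-109463336), a paternal gene for a Notch-related membrane protein, had 280 to 519 CPM in hypothalamus, median 307. In cortex it had 1.1 to 4.62 CPM, median 1.71, and in brainstem 61.3 to 93.4 CPM, median 75.3. That is a log2 fold change of 7.36 ± 0.14 against cortex and, for cortex against brainstem, of -5.19 ± 0.14 (adjusted p = 4.5e-26 and 3.5e-23). Meg3 (chr12:109541001-109571726), the maternal long non-coding RNA of the domain, had 1229 to 2449 CPM in hypothalamus, median 1761. It reached 5141 to 6990 CPM in cortex, median 6544, and had 780 to 1436 CPM in brainstem, median 1073. No hypothalamus library reached the lowest cortex library, and the log2 fold change was -1.89 ± 0.09 (adjusted p = 3.3e-17), while cortex exceeded brainstem by 2.62 ± 0.09 (adjusted p = 1.9e-20).

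The other non-coding RNAs of the domain followed the order of Meg3 with smaller differences. Mirg had 14.4 to 25.6 CPM in hypothalamus, median 19.5, then 32.2 to 39.7 CPM in cortex, median 33.7, and 7.61 to 15.8 CPM in brainstem, median 10.4. The log2 fold change was -0.83 ± 0.08 against cortex, and cortex exceeded brainstem by 1.72 ± 0.08 (adjusted p = 2.1e-11 and 1.1e-18). Rian, which hosts small nucleolar RNAs, had 510 to 686 CPM in hypothalamus, 730 to 815 CPM in cortex and 389 to 461 CPM in brainstem, with no overlap between tissues. Rtl1, the retrotransposon-derived gene of the same domain, which was not among the members, had 12.2 to 17.6 CPM in hypothalamus and at most 0.404 CPM in cortex. Per kilobase, Meg3 was the highest of all members in cortex, with a median of 362 CPM per kb against 42.6 for Rian and 4.63 for Mirg.

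**Figure D2:**
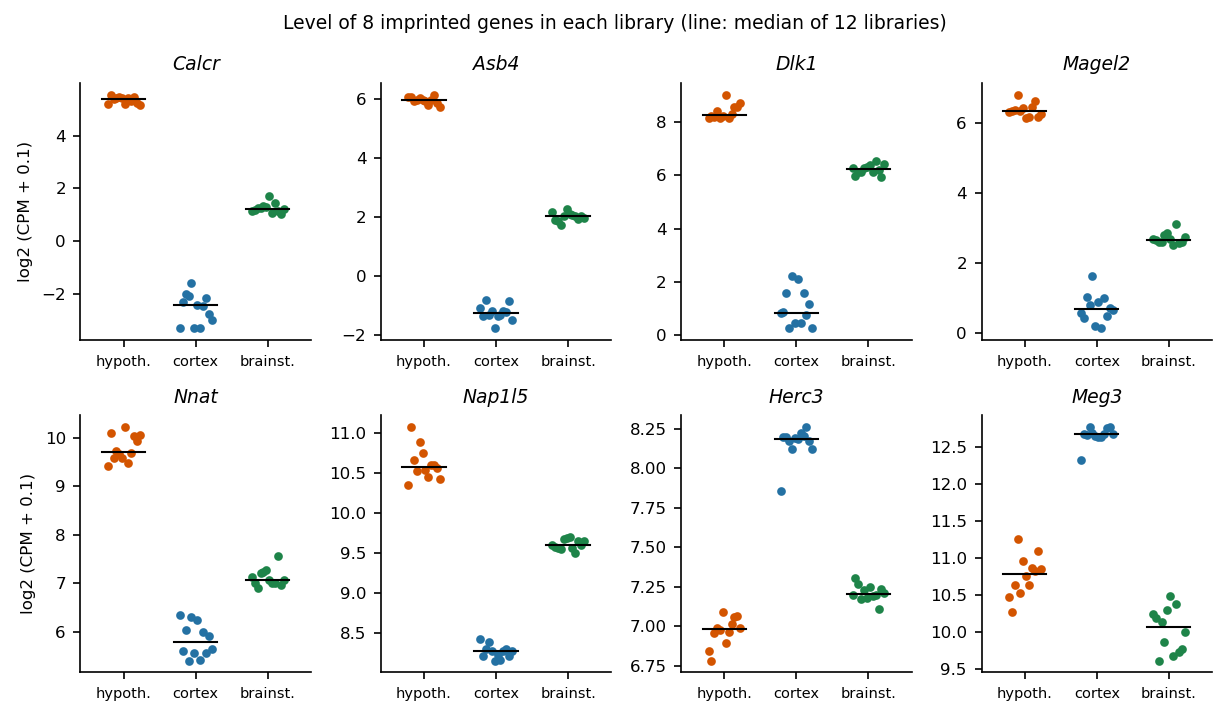
Level of 8 imprinted genes in each of 36 libraries as log2 (CPM + 0.1) (vertical axis, its range set per gene), by tissue, with a line at the median of 12 libraries. Calcr, Asb4, Dlk1, Magel2, Nnat and Nap1l5 are highest in hypothalamus in every library, and Herc3 and Meg3 in cortex.

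In the Prader-Willi and Angelman region on chromosome 7, Magel2 (chr7:62377010-62381640), a paternal gene whose protein acts in the sorting of endosomes, had 70.9 to 112 CPM in hypothalamus, median 81.1. It had 0.99 to 3 CPM in cortex, median 1.5, and 5.61 to 8.57 CPM in brainstem, median 6.24. The log2 fold change was 5.73 ± 0.10 against cortex and 3.70 ± 0.08 against brainstem (adjusted p = 1.2e-28 and 1.7e-25), and the 3 tissues did not overlap. Necdin (Ndn), its neighbour and a protein of the same family, had 461 to 750 CPM in hypothalamus, 72.8 to 97 CPM in cortex and 206 to 247 CPM in brainstem (2.68 ± 0.06 against cortex). Mkrn3, a paternal gene nearby that is known for its part in the timing of puberty, had only 0.58 to 2.26 CPM in hypothalamus, median 0.976. In cortex it had 0.785 to 1.4 CPM, median 1.06, and in brainstem 1.24 to 2.08 CPM, median 1.78. Its hypothalamus and cortex overlapped (-0.01 ± 0.15, adjusted p = 0.95), and it was lower in hypothalamus than in brainstem by -0.76 ± 0.15 (adjusted p = 4.1e-05), also with overlap. Ube3a, the maternal ubiquitin ligase of Angelman syndrome, had 48.3 to 118 CPM in hypothalamus, 32.6 to 72.9 CPM in cortex and 82.9 to 117 CPM in brainstem. The lowest Ube3a values of hypothalamus and of cortex were those of the 2 libraries that were low for long transcripts, and its exons span 20626 bases.

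The Snrpn bicistronic gene had no row, and a gene whose exons overlap it, Gm38393, had. Gm38393, chosen after its values were seen, shares 589 exon bases with Snrpn and 216 with Snurf. It lay between 500 and 744 CPM in all libraries, with -0.04 ± 0.04 between hypothalamus and cortex (adjusted p = 0.44).

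In the Peg3 domain, Peg3, a paternal zinc-finger gene, had 1165 to 1627 CPM in hypothalamus, 427 to 627 CPM in cortex and 547 to 767 CPM in brainstem (1.34 ± 0.06 against cortex). Usp29, which starts beside Peg3 on the opposite strand, had 46.7 to 107 CPM in hypothalamus, 9.79 to 18.9 CPM in cortex and 31.9 to 41.7 CPM in brainstem (2.50 ± 0.10). Maternal Zim1 differed more than either, with 13.5 to 39 CPM in hypothalamus and 1.37 to 3.81 CPM in cortex (3.76 ± 0.14). In all 3 genes every hypothalamus library exceeded every cortex and brainstem library, whichever parental copy is expressed.

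Host genes and the imprinted genes inside their introns also differed from each other. Nnat, or neuronatin (chr2:157560078-157562522), a paternal gene for a small membrane proteolipid inside an intron of Blcap, had 684 to 1198 CPM in hypothalamus, median 836. It had 42.2 to 81.2 CPM in cortex, median 55.1, and 120 to 189 CPM in brainstem, median 135 (3.97 ± 0.09 against cortex). Blcap, the host, had 165 to 223 CPM in hypothalamus and 64.9 to 78.2 CPM in cortex (1.48 ± 0.04). Nap1l5 (chr6:58905233-58907076), a paternal gene related to nucleosome assembly proteins inside an intron of Herc3, had 1310 to 2165 CPM in hypothalamus and 284 to 342 CPM in cortex (2.37 ± 0.05). Herc3, its host and a ubiquitin ligase gene, lay the other way, with 110 to 136 CPM in hypothalamus, median 127, then 232 to 307 CPM in cortex, median 291, and 138 to 158 CPM in brainstem, median 148 (-1.19 ± 0.04 against cortex, adjusted p = 1.4e-23). No hypothalamus library reached the lowest Herc3 value of the other tissues.

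For a further 2 pairs of this kind the differences were smaller. Zrsr1, a splicing factor gene, and its host Commd1 differed by 0.54 ± 0.03 and 0.72 ± 0.06 between hypothalamus and cortex. Mcts2 had -0.04 ± 0.07, which did not pass the threshold, while its host H13, a signal peptide peptidase gene, was higher by 0.87 ± 0.03. Inpp5f, an inositol phosphatase gene with an imprinted short form that the counts do not separate, was higher by 0.93 ± 0.03. Where such genes overlap on opposite strands their counts are uncertain, because the strand setting of the counting is not given in the sources used here.

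In the growth-related regions, Igf2, the paternal insulin-like growth factor, had 29 to 154 CPM in hypothalamus, median 116. In cortex it had 44.6 to 61.3 CPM, median 51.1, and in brainstem 109 to 231 CPM, median 154. Its log2 fold change was 1.00 ± 0.17 against cortex and -0.60 ± 0.17 against brainstem (adjusted p = 6.5e-06 and 0.0021), and in both pairs the libraries overlapped. Igf2 is known from the meninges and choroid plexus, and a list of 12 meningeal genes summed to 85.5 to 1054 CPM in hypothalamus, 120 to 149 CPM in cortex and 136 to 199 CPM in brainstem, the highest in the library with nasal transcripts. The choroid plexus list summed to 94.7 to 194 CPM, 13.2 to 104 CPM and 1287 to 3180 CPM in the same order of tissues. The part of these tissues in the Igf2 differences was not tested. H19, the maternal non-coding RNA beside Igf2, had at most 1.16 CPM in any library, and 0.275 to 1.14 CPM in hypothalamus against 0.044 to 0.215 CPM in cortex.

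Airn, the paternal antisense RNA of Igf2r, was the only member lower by at least 2-fold in hypothalamus than in brainstem. It had 1.05 to 2.14 CPM in hypothalamus, median 1.66, then 0.512 to 1.47 CPM in cortex, median 0.726, and 3.15 to 4.49 CPM in brainstem, median 3.4 (-1.12 ± 0.13 against brainstem, adjusted p = 3.8e-09). Its brainstem libraries lay above all others. Igf2r, the maternal receptor that clears IGF2, ranged only from 32.9 to 55.3 CPM over the 36 libraries. Grb10, which restrains insulin and growth factor signalling, had 227 to 267 CPM in hypothalamus, 48.3 to 62.3 CPM in cortex and 85 to 106 CPM in brainstem (2.14 ± 0.04 against cortex). Plagl1, a paternal zinc-finger transcription factor, was higher in hypothalamus than in either other tissue by the same 1.46 ± 0.07. Zdbf2 was higher than in cortex by 2.20 ± 0.07, and the stress-response gene Impact by 1.75 ± 0.03.

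Gnas, which encodes the stimulatory G protein subunit and is maternal in some tissues, stood among the highest members everywhere. It had 1938 to 2867 CPM in hypothalamus, 1055 to 1402 CPM in cortex and 2090 to 2464 CPM in brainstem, and its hypothalamus and brainstem differed by 0.05 ± 0.04 (adjusted p = 0.28). Nespas, the antisense RNA at its start, stayed at or under 0.823 CPM. Per kilobase, the highest members in hypothalamus were Nap1l5, Nnat and Gnas with medians of 831, 457 and 212 CPM per kb, and the same 3 had 167, 30.1 and 103 CPM per kb in cortex. Kcnq1, a potassium channel gene, was the 1 tested member with no call in either comparison of hypothalamus, and differed by 0.47 ± 0.33 from cortex and 0.39 ± 0.33 from brainstem. Its highest value, 3.02 CPM, was in the hypothalamus library with nasal transcripts, and its medians were 0.305 CPM in hypothalamus, 0.33 CPM in cortex and 0.363 CPM in brainstem. Fewer cells of a type and less RNA per cell cannot be told apart in such tissue libraries.

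Of 37 other imprinted genes, listed with earlier results of these data known, 33 had a row and 29 were tested between regions. Higher in hypothalamus than in cortex were 18 and lower 6, where 42.7% and 40.3% of all genes were, with a median of 0.39. The largest were Rtl1 at 6.92 ± 0.16 and Th, tyrosine hydroxylase, at 3.73 ± 0.25. On the other side stood Tnfrsf23 at -2.01 ± 0.15 and Cobl at -1.33 ± 0.04. A list of 30 regulators of imprinting, such as DNA methyltransferases and the enzymes that oxidise methylated DNA, held more genes lower than higher: of 28 tested, 4 were higher in hypothalamus than in cortex and 16 lower, where 42.7% and 40.3% of all genes were, with a median of -0.16. Tet3 and Tet2, which are among the oxidising enzymes and had the largest decreases of the list, were lower by -1.26 ± 0.06 and -1.19 ± 0.06. The chromatin protein gene Cbx5 was higher by 0.49 ± 0.04, and Dnmt3l by 1.16 ± 0.39 at no more than 0.257 CPM in hypothalamus.

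Whether loss of hypocretin or of its neurons altered imprinted genes was asked in each tissue by setting each model against its own wild type. In hypothalamus no member passed the threshold of adjusted p 0.05 in edgeR's test in either model. Of all 16738 genes, 0.00597% were called in the ataxin-3 transgenic and 0.0119% in the knockout, Hcrt among them in both. With p unadjusted, 6 of 43 members were under 0.05 in the ataxin-3 transgenic and 4 in the knockout, against 4.16% and 3.89% of all genes. DESeq2 called 1 member, Mirg, in the ataxin-3 transgenic and 0 in the knockout, and voom called 0 in both. The shares of all genes given here are those of edgeR's test, and none is set beside the DESeq2 and voom calls. The median log2 fold change over the members was -0.02 in the ataxin-3 transgenic and 0.03 in the knockout, against 0.01 over all genes in both.

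Mirg had the smallest p among the members in both models of hypothalamus. It had 14.4, 15.9 and 16 CPM in ataxin-3 transgenic mice, against 24.3, 19.7 and 24.8 CPM in their wild type. The 3 transgenic libraries were the lowest of all 12 hypothalamus libraries. The log2 fold change was -0.56 ± 0.11 with an adjusted p of 0.98 in edgeR's test and 0.02 in DESeq2. Leaving out the 4 libraries with pituitary or nasal transcripts, and so all but 1 wild type of that line, gave -0.31 (adjusted p = 1). In Hcrt knockout mice Mirg had 20.1, 25.6 and 20.9 CPM, against 16.9, 17.5 and 19.4 CPM in their wild type. Here the knockout libraries lay above the wild type without overlap (0.31 ± 0.11, adjusted p = 0.81). No member was called by edgeR for the difference between the models, where 0% of all genes were, and 2 had an unadjusted p under 0.05, against 2.26% of all genes. For Mirg the ataxin-3 effect minus the knockout effect was -0.87 ± 0.16 (adjusted p = 0.70 in edgeR and 0.007 in DESeq2).

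Mirg also differed between the 2 wild types, which were higher in the ataxin-3 line by 0.35 ± 0.11 (adjusted p = 1), again with no overlap. Between these wild types Mirg and Usp29 lay higher in the ataxin-3 line with no overlap, and Igf2r and Trappc9 lower, where 5.28% and 5.85% of all genes did. In brainstem it had 12.1, 11.6 and 12.9 CPM in Hcrt knockout and 8.14, 8.28 and 9.14 CPM in its wild type. These groups did not overlap (0.52 ± 0.22, adjusted p = 1). A fit of these 6 libraries alone gave an adjusted p of 0.027 in edgeR's test, while DESeq2 and voom called no member in this comparison. No share of all genes is set beside that fit. In ataxin-3 transgenic brainstem it had 12.1, 8.3 and 8.46 CPM, against 13, 15.8 and 7.61 CPM in its wild type, with wide overlap. Meg3 had 1162, 1123 and 1259 CPM in Hcrt knockout brainstem, against 812, 847 and 1022 CPM in its wild type, also without overlap. In cortex Mirg stayed between 32.2 and 39.7 CPM in all groups.

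**Figure D3:**
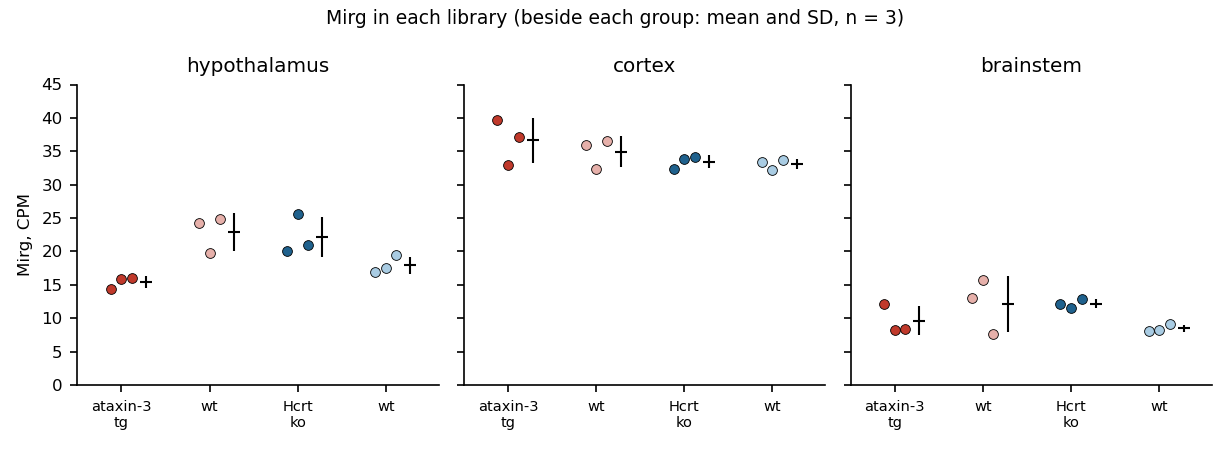
Mirg in CPM (vertical axis) in each library of the 4 genotypes in hypothalamus, cortex and brainstem, with the mean and SD of each group of 3 beside its points. In hypothalamus the 3 ataxin-3 transgenic libraries, at 14.4 to 16 CPM, lie below all others.

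Dlk1 had the next smallest p in ataxin-3 transgenic hypothalamus, with 284, 294 and 284 CPM against 519, 313 and 381 CPM in its wild type (-0.48 ± 0.17, adjusted p = 1). The 2 highest wild types are those that held pituitary transcripts, and Dlk1 is known from the pituitary. Without the 4 libraries the difference was -0.13 (adjusted p = 1). Mest, a paternal gene of the hydrolase family, had 26.7, 21 and 20.4 CPM in ataxin-3 transgenic hypothalamus, against 89.8, 24.6 and 49.7 CPM in its wild type. Its 3 highest values, 89.8, 49.7 and 67 CPM, were in the 3 libraries with pituitary transcripts, and the other 9 hypothalamus libraries lay between 20.4 and 27.4 CPM. Without the 4 libraries its difference was -0.26, against -1.25 with them. For Nnat it was -0.07 without them and -0.40 with them, and for Plagl1 -0.19 and -0.45.

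**Figure D4:**
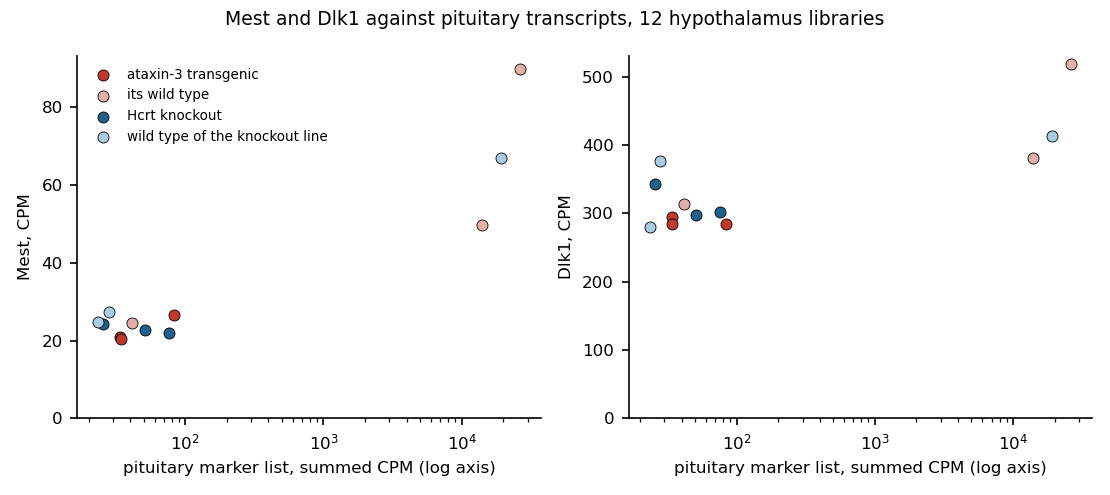
Mest (left) and Dlk1 (right) in CPM (vertical axes) against the summed CPM of a list of pituitary marker genes (log axis) in the 12 hypothalamus libraries, coloured by genotype. The 3 wild-type libraries with 14021 to 26276 CPM of pituitary markers hold the highest Mest values, 49.7 to 89.8 CPM.

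Maternal Slc22a18, an organic cation transporter gene, was 3.91 CPM in the ataxin-3 transgenic library with nasal transcripts, against 0.44 to 0.996 CPM in the other 11 hypothalamus libraries. Kcnq1 was 3.02 CPM there and 0.117 to 0.669 CPM elsewhere. Without the 4 libraries the Slc22a18 difference of the ataxin-3 transgenic was 0.11, against 1.55 with them. In the knockout, Igf2r had the next smallest p after Mirg, with 33.8, 46.8 and 44.3 CPM in knockout libraries and 52, 51.5 and 48.6 CPM in their wild type (-0.28 ± 0.12, adjusted p = 0.81). Its groups did not overlap, and the lowest value belonged to the library that was low for long transcripts. In brainstem, wild type 2 of the knockout line had the lowest value of the tissue for 12 of 42 members. No such count was made over all genes. In that library genes with over 12 kb of exon had a median log2 ratio of -0.13, and genes under 2 kb 0.08. These were the lowest and the highest such medians among the 34 libraries not described as low for long transcripts. In Hcrt knockout hypothalamus 1, the library low for long transcripts, 12 of 43 members had their lowest value of the tissue. That was as many as in ataxin-3 transgenic hypothalamus 1, and no such count was made over all genes here either. Among the 12 of Hcrt knockout hypothalamus 1 were Kcnk9, Zim1, Ube3a and Usp29, with log2 ratios of -1.61, -1.36, -1.17 and -1.10 to the median of the others. The median exon length of those 12 was 12480 bases, against 4492 for the other members. Without Hcrt knockout hypothalamus 1 the knockout difference was -0.16 for Igf2r, 0.04 for Ube3a and 0.17 for Zim1.

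In all, 8 members of ataxin-3 transgenic hypothalamus lay below their wild type with no overlap and 0 above, where 5.03% and 4.58% of all genes did, 9.61% together. They were Nnat, Dlk1, Meg3, Mirg, Zim1, Gnas, Kcnk9 and H13. Most wild types in this comparison held pituitary transcripts, and a transgenic library held nasal ones. The part of these transcripts in the count of 8 was not tested. In knockout hypothalamus 2 lay above, Mirg and Zrsr1, and 3 below, Igf2r, Kcnq1 and Mest, where 3.84% and 3.28% of all genes did, 7.12% together.

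**Figure D5:**
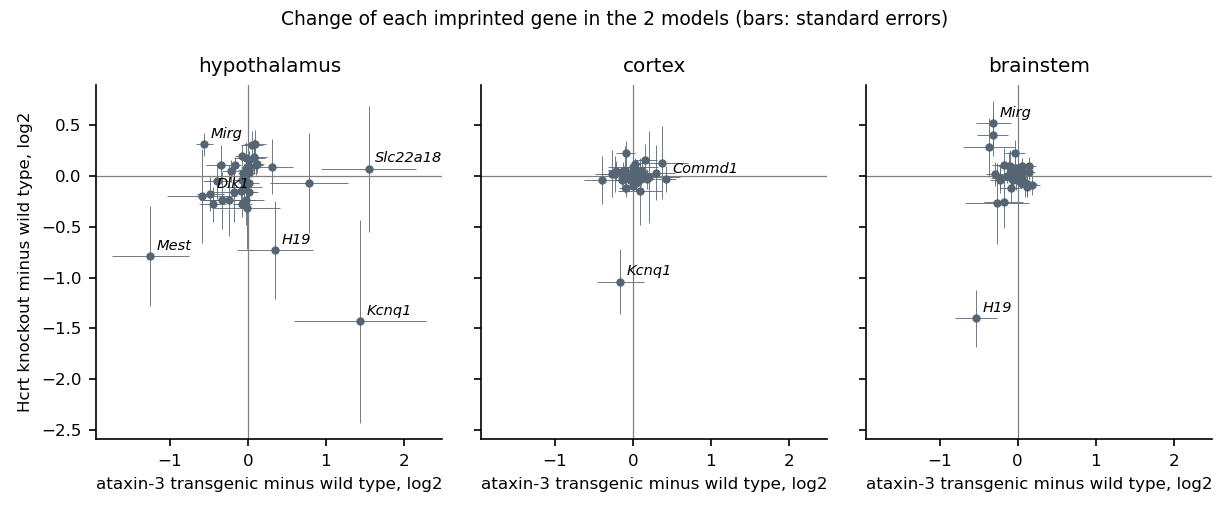
Log2 fold change of each imprinted gene tested in ataxin-3 transgenic minus wild type (horizontal axis) and Hcrt knockout minus wild type (vertical axis) in each tissue, with standard errors as bars. No point passed the threshold in either model; the widest spread is in hypothalamus, from -1.25 for Mest to 1.55 for Slc22a18 along the horizontal axis.

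In cortex no member was called in edgeR's test in either model, while 0% of 16479 genes were called in the ataxin-3 transgenic and 0.0789% in the knockout, 0.0243% as higher and 0.0546% as lower. With p unadjusted, 2 of 40 members were under 0.05 in the ataxin-3 transgenic and 1 in the knockout, against 5.09% and 3.3% of all genes, and DESeq2 and voom called none. Commd1, a copper-metabolism and NF-kB regulator gene, had 7.91, 5.21 and 5.66 CPM in ataxin-3 transgenic cortex, against 4.29, 4.78 and 4.96 CPM in its wild type (0.43 ± 0.13, adjusted p = 0.75). Ppp1r9a had 296, 437 and 398 CPM there, against 430, 446 and 445 CPM (-0.22 ± 0.10, adjusted p = 0.75). In both genes replicate 1 of the transgenic cortex was the extreme value, the library low for long transcripts, and without it Commd1 differed by 0.22 and Ppp1r9a by -0.08. In that library 14 of 40 members had their lowest value of the tissue, against 9 of 40 in Hcrt knockout cortex 2. No such count was made over all genes. Sgce and Commd1 lay above their wild type in ataxin-3 transgenic cortex with no overlap and 0 members lay below, where 4.38% and 4.64% of all genes did, 9.01% together.

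In Hcrt knockout cortex Kcnq1 had 0.197, 0.176 and 0.311 CPM, against 0.376, 0.584 and 0.434 CPM in its wild type (-1.04 ± 0.32, adjusted p = 1). The groups did not overlap, at levels of under 1 CPM. Rasgrf1, a paternal gene for an exchange factor of Ras, had 412, 404 and 427 CPM in knockout cortex and 401, 356 and 385 CPM in its wild type (0.12 ± 0.06, adjusted p = 1). Impact, Zdbf2 and Rasgrf1 lay above their wild type with no overlap in knockout cortex, and Igf2r, Kcnq1 and Mest below, where 5.1% and 5.63% of all genes did. The difference between the models was called for 0 of 40 members by edgeR, where 0.0243% of all genes were, with 1 under an unadjusted p of 0.05 against 3.13% of all genes.

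The wild types of the 2 lines were set against each other to see how far line alone separated the members. None was called by edgeR in any tissue, where 0% of all genes were. With p unadjusted, 2 of 43 members in hypothalamus, 4 of 40 in cortex and 4 of 42 in brainstem were under 0.05, against 2.29%, 3.26% and 14.9% of all genes. In cortex Nnat had 75.6, 63.9 and 60.2 CPM in wild types of the ataxin-3 line, against 42.8, 47.3 and 50.1 CPM in those of the knockout line (0.51 ± 0.10, adjusted p = 0.31). The mutants lay with their own line, at 81.2, 65.9 and 79 CPM in ataxin-3 transgenic cortex and 48.4, 42.2 and 47 CPM in Hcrt knockout cortex. DESeq2 and voom both called the difference between these wild types (adjusted p = 0.0025 and 0.022), and Nnat was the 1 member that either called. No share of all genes is set beside the DESeq2 and voom calls. Dlk1 had 4.23, 2.94 and 2.14 CPM in wild-type cortex of the ataxin-3 line and 1.3, 1.6 and 1.12 CPM in that of the knockout line (1.2 ± 0.35, adjusted p = 1). Line and any other difference between the 2 sets of mice cannot be told apart here. Of 40 members, 7 lay higher in the ataxin-3 line without overlap and 1 lower, where 5.35% and 5.24% of all genes did. Of the 7, 6 were paternal, among members split about evenly between paternal and maternal. Whether the classes differed was not tested.

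In brainstem no member was called in edgeR's test in either model, where 0.00606% of 16493 genes were called in the ataxin-3 transgenic and 0.0728% in the knockout. With p unadjusted, 1 of 42 members was under 0.05 in the ataxin-3 transgenic and 2 in the knockout, against 8.35% and 3.24% of all genes, and DESeq2 and voom called 0 in both. Mest had 22.3, 24.3 and 27.4 CPM in ataxin-3 transgenic brainstem and 32.6, 34.5 and 24.1 CPM in its wild type (-0.29 ± 0.12, adjusted p = 0.56). Wild type 3 lay within the transgenic range, and wild types 1 and 2, the libraries with more counts outside genes, lay above it. Ube3a had 96.2, 90.7 and 94 CPM, against 117, 96.9 and 96.1 CPM (-0.14 ± 0.07, adjusted p = 0.62). Without wild type 1 its difference was -0.04.

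Without wild type 3 of the ataxin-3 line, which left wild types 1 and 2 alone as the controls, 4 members passed in ataxin-3 transgenic brainstem, Mest, Mirg, Plagl1 and Zrsr1, among 457 genes called in all. Without wild type 1 or without wild type 2, 0 members passed, among 1 gene called in all each time, and Mest differed by -0.23 and -0.20. Meg3 was 1436, 1334 and 868 CPM in the 3 wild types of this line, against 780 to 1259 CPM in the other 9 brainstem libraries, so that wild types 1 and 2 lay above that range and wild type 3 within it. Mest, at 21.5 to 27.4 CPM in those 9 libraries, was placed in the same way. Igf2 was 196, 231 and 109 CPM, with wild types 1 and 2 above and wild type 3 below the 124 to 190 CPM of the others. The choroid plexus list summed to 2643, 3180 and 1287 CPM in the 3 wild types, the highest and the lowest of the 12 brainstem libraries among them. The part of the counts outside genes and of choroid plexus in the members' values was not tested.

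H19 had the smallest p of the members in Hcrt knockout brainstem, with 0.305, 0.537 and 0.277 CPM against 1.16, 0.995 and 0.795 CPM in its wild type. The groups did not overlap (-1.40 ± 0.28, adjusted p = 0.14). In ataxin-3 transgenic brainstem H19 had 0.465, 0.548 and 0.703 CPM, against 0.851, 0.701 and 0.909 CPM in its wild type (-0.53). In hypothalamus the groups of both models overlapped in H19. In brainstem Meg3, Mirg and Zim1 lay above their wild type with no overlap in the knockout and H19 below, where 4.99% and 4.69% of all genes did. In the ataxin-3 transgenic Gnas lay above and 0 members below, where 6.26% and 6.15% of all genes did. The difference between the models in brainstem was called for 0 members by edgeR, where 0% of all genes were, and 3 had an unadjusted p under 0.05, against 4.75% of all genes.

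The lists of other imprinted genes and of imprinting regulators held no gene past the threshold of edgeR's test in any of the 6 comparisons of a model with its wild type. Of the other imprinted genes, 4 of 28 in ataxin-3 transgenic hypothalamus, 1 of 28 in knockout hypothalamus, 4 of 26 and 2 of 26 in the corresponding cortex, and 2 of 26 and 1 of 26 in brainstem had an unadjusted p under 0.05. Of all genes, 4.16% and 3.89% in hypothalamus, 5.09% and 3.3% in cortex and 8.35% and 3.24% in brainstem did. For the regulators the counts were 0 of 27 and 1 of 27 in hypothalamus, 1 of 27 and 0 of 27 in cortex and 3 of 28 and 2 of 28 in brainstem. The effect of the models was also set against itself between tissues, a test added after the data were seen. No member was called in any of the 6 differences, where at most 0.00564% of all genes were.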

How the data were processed

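RNA was extracted from hypothalamus, cortex and brainstem with an RNeasy Lipid Tissue Midi kit and made into stranded poly(A) libraries, per the labels' protocols. The authors deposited raw read counts per Ensembl gene, and the submitters' processing notes name cutadapt 1.2.1, TopHat2 2.0.9, HTSeq 0.5.4p3 and the GRCm38 build. Neither the annotation release nor the strand setting of the counting is given in the sources used here. Lines of the tables that name no gene, 24.7% to 42% of all counts, stayed out of library sizes and tests.

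Gene symbols came from GENCODE M21, which named 37607 of the 38924 identifiers. The counts of each tissue's 12 libraries were fitted with edgeR 4.0.16 in R 4.3.3 (TMM factors, filterByExpr by group, robust quasi-likelihood F test, Benjamini-Hochberg adjustment over all genes tested, threshold 0.05), and all 36 libraries were fitted together for the comparisons of regions. Standard errors were the log2 fold change divided by the root of F. A library value of 0 allows up to 3 counts, and such limits cover counting error only. Alternatives were DESeq2 1.42.0, limma 3.58.1 (voom with quality weights), other factors and filters, other sets of libraries, and a replicate block. Within a tissue, same-numbered libraries of a model and its wild type had correlated deviations from -0.222 to 0.282 over 18 pairs, so the numbers were not used to pair libraries.

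Per-library values are given for the 2 members with the smallest p in each comparison of a model with its wild type and for the 3 called members farthest apart in each direction between regions. Other members given by library are those that libraries standing apart, line or a non-overlapping pair of groups bear on, and they were chosen after their values were seen. The members, the marker lists and the lists of related genes were chosen with earlier results of these data known. Promoter and microRNA sequences are RefSeq's for GRCm38.p6. Figures were drawn with matplotlib 3.10.9 in Python 3.11.15.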

Additional observations from a re-analysis of the deposited data

Results flagged for a closer look

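Mirg in hypothalamus lay below its wild type in every ataxin-3 transgenic library and above its wild type in every Hcrt knockout library. The difference of the 2 effects was -0.87 ± 0.16 on the log2 scale, with an adjusted p of 0.70 in edgeR's test, so it did not pass the threshold. Leaving out the 4 libraries with pituitary or nasal transcripts, it was -0.67.

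Gnas in the ataxin-3 line lay below its wild type in all 3 transgenic hypothalamus libraries, at 1938, 2343 and 2370 CPM against 2867, 2407 and 2516 CPM (-0.22 ± 0.11). Wild types 1 and 3 held pituitary transcripts and transgenic library 1 nasal ones, and without the 4 such libraries of the tissue the difference was -0.04 (adjusted p = 1). In brainstem the transgenic libraries lay above, at 2328, 2363 and 2464 CPM against 2307, 2318 and 2324 CPM. The effect in hypothalamus minus that in brainstem was -0.27 ± 0.12, with an adjusted p of 0.67 in edgeR's test, a comparison added after the data were seen. Groups held 3 libraries, too few for a test of single libraries within a group.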

How the results depend on the processing

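Within tissues, DESeq2 called 1 member, Mirg, in ataxin-3 transgenic hypothalamus and 1, again Mirg, for the difference between the models there, where edgeR called 0. Between the wild types of cortex DESeq2 and voom each called 1, Nnat. A fit of the 6 libraries compared called 1 member, Mirg, in Hcrt knockout brainstem, where DESeq2 and voom called none. No share of all genes is set beside the calls of these alternatives. Leaving out 1 library at a time gave 0 to 4 members in ataxin-3 transgenic brainstem. It gave 0 to 1 for the difference between the models there and 0 to 3 between the wild types. The higher counts all came without wild type 3 of the ataxin-3 line, which left its wild types 1 and 2. Those libraries had more counts outside genes, and the part of this in the calls was not tested. No share of all genes is set beside these counts either. The other 299 counts stayed within 1.5 times the main count, and of the named members' refits 947 kept direction and side of the threshold, 3 newly passed it (Mirg and Mest, as above) and 0 reversed.

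Between regions the members called ranged over all alternatives from 37 to 39 for hypothalamus against cortex, 34 to 39 for hypothalamus against brainstem and 38 to 40 for cortex against brainstem. The 34 came from leaving out the 4 hypothalamus libraries with pituitary or nasal transcripts. A replicate block gave counts of 38, 37 and 39, against 38, 38 and 39 without it, and within tissues the block called 0 members in each comparison. Tissues of one genotype with the same title number had correlations of -0.139 to 0.0968 over 36 pairs. Groups of 3 and a coefficient of variation of 18% limit the hypothalamus comparisons, and members under 1 CPM, such as Nespas and H19 in cortex, rest on few counts.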
